A study of Mus musculus with 6 samples.

Results

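The genes described here are the core of the transforming growth factor β (TGF-β) pathway in the mouse prostate: the ligands Tgfb1, Tgfb2 and Tgfb3, the latency protein Ltbp1, the receptors Tgfbr1, Tgfbr2 and Tgfbr3, and the signal carriers and inhibitor Smad2, Smad3 and Smad7. They were chosen by gene symbol and are 10 of the 34745 genes in the expression table. All 10 passed the filter on low counts, which left 15580 genes for testing. RNA from the prostates of 6 male C57BL/6 mice was sequenced as a model of benign prostatic hyperplasia (BPH), an enlargement of the prostate in ageing men. The T + E2 group comprised 3 mice that carried pellets under the skin releasing testosterone and estradiol at a ratio of 10 to 1, and the CON group comprised 3 mice that underwent the skin incision and its closure alone. The mice were 6 to 8 weeks old when they entered the study, the pellets acted for 12 weeks, and the labels name no transgene or deletion in either group. The pellets contained both hormones, so the effect of testosterone and that of estradiol cannot be told apart.

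TGF-β is secreted in a latent complex that latent TGF-β binding proteins tie to the extracellular matrix, and it acts only after integrins or proteases release it. The free ligand binds the type II receptor TGFBR2, which recruits and phosphorylates the type I receptor TGFBR1, which in turn phosphorylates Smad2 and Smad3. These enter the nucleus together with Smad4, while Smad7, a gene that the signal itself induces, blocks the receptors. In the prostate, stromal TGF-β is known for restraining the growth of the epithelium and for driving smooth muscle and myofibroblast differentiation.

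The libraries held between 14816146 and 16555549 counted reads, of which 6914 to 10232 fell on the 10 genes. All 6 markers of prostate tissue were detected in every mouse, and their summed level in CPM, the read count scaled to the library total, was 38892 to 52078 CPM in the CON group and 16371 to 18326 CPM in the T + E2 group. Probasin (Pbsn) and transglutaminase 4 (Tgm4), both secretory products of the gland, were lower in the T + E2 group, by log2 fold changes of -3.29 and -2.91, while the secretory genes Msmb and Spink1 were higher, by 1.10 and 0.72, and the other 2 markers were not called. Transcripts of the seminal vesicle, a neighbouring gland, stood out in CON mouse 2, where 7 markers summed to 10291 CPM, and in T + E2 mouse 2 at 643 CPM, against at most 3.84 CPM in the other 4 mice. Results that depend on these libraries are therefore given below with and without them.

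RefSeq promoter windows on build GRCm38.p6 were found for 6 of the 10 genes. Printed here are the 250 bases before the annotated start of 3 of them: Tgfb1 and Tgfb2, ligands whose estimates had opposite signs, and Tgfbr2, the gene with the largest difference between the groups. They read 5′ to 3′ on the strand of the gene. Capitals mark matches on either strand to the GC box (GGGCGG), the Smad box (CAGAC), the TATA box (TATAAA), the cAMP response half-site (TGACGT) or the androgen response half-site (AGAACA). These 5 motifs did not overlap each other in the sequences shown.
Tgfb1, chr7:25686752-25687001, plus strand: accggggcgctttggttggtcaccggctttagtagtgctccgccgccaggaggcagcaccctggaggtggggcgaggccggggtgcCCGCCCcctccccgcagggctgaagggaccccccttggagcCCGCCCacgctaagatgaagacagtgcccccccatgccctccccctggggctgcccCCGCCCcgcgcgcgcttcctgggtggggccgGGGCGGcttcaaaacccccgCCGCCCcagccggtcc
Tgfb2, chr1:186705990-186706239, minus strand: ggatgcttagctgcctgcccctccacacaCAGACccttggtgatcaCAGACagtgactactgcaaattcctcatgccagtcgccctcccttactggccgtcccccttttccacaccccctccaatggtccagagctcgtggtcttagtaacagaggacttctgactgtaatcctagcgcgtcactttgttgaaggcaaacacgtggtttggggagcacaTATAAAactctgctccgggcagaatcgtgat
Tgfbr2, chr9:116175364-116175613, minus strand: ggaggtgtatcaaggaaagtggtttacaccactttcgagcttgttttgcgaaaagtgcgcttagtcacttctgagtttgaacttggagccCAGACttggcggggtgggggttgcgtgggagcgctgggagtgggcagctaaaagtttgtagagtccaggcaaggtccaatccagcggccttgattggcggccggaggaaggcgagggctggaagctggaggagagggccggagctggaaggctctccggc

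The Tgfb1 window held 5 GC boxes, the motif of Sp family factors, and no TATA or Smad box, with a GC content of 75.2% against a median of 52.4% over 32851 windows. The Tgfb2 window held the reverse set, with 1 TATA box and 2 Smad boxes but no GC box, at a GC content of 53.6%. A single Smad box was the only match upstream of Tgfbr2. A GC box also occurred upstream of Smad3 and Tgfbr1, so that 3 of 8 windows of these genes held one, against 32.7% of all windows. The Smad box was present in 5 of 8 windows against 42.2% of all windows, and the TATA box in 1 of 8 against 12.4%. No window of these genes held the androgen response half-site, which occurred in 16.1% of all windows. A match is a string of letters in this stretch and was not tested as a binding site.

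Across the 10 genes, Tgfbr1 and Tgfbr2 were higher in the T + E2 group and Tgfb2 and Smad7 were lower, while the other 6 did not pass the test. The test was edgeR's quasi-likelihood test over all genes with Benjamini-Hochberg adjustment, and a gene was called at an adjusted p under 0.05. Of all genes tested, 19.6% were called, 10.4% as higher and 9.25% as lower, against 4 of the 10 genes here, 2 in each direction. Adding the requirement of an absolute log2 fold change over 1 left 7.64% of all genes and 1 of the 10, Tgfbr2. The values of the CON and T + E2 mice did not overlap for 9 of the 10 genes, the exception being Smad2, and for 40.7% of all genes tested. In bulk tissue, fewer cells of a type and less RNA per cell cannot be told apart.

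**Figure D1:**
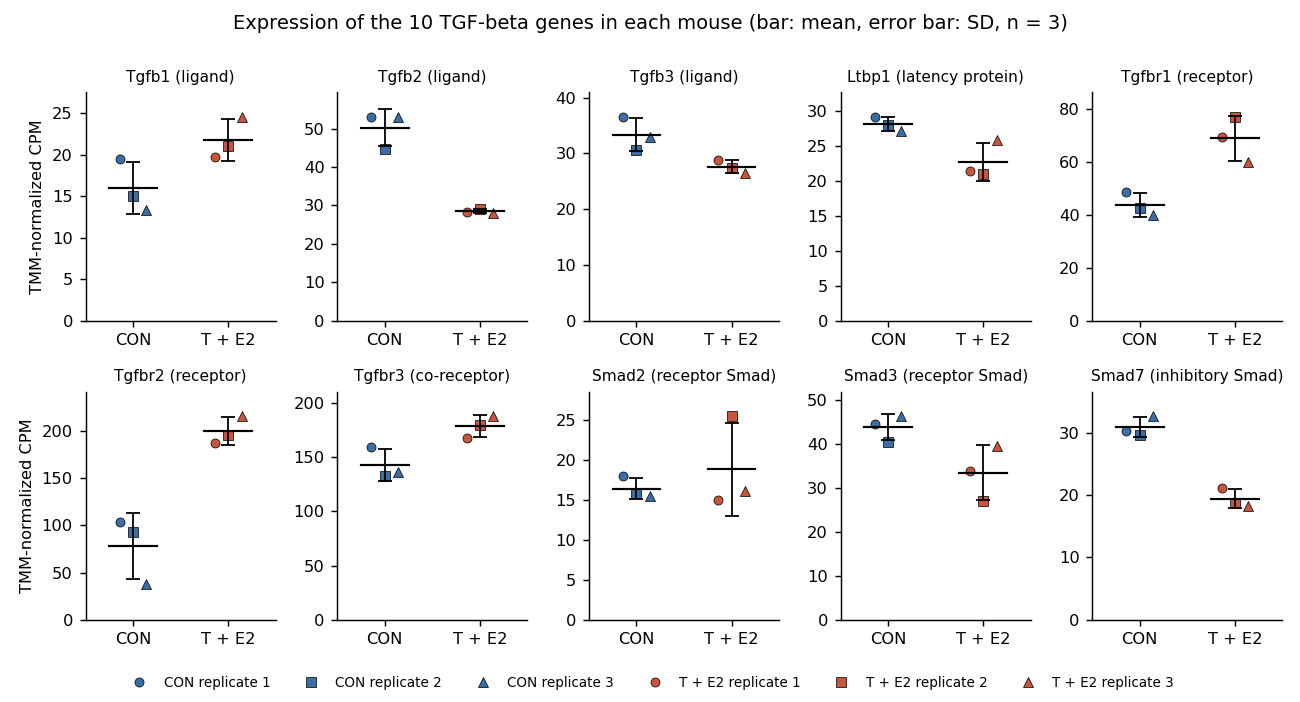
Each panel plots 1 gene, with TMM-normalized CPM on a linear axis from 0 and 1 symbol per mouse in the CON and T + E2 groups; horizontal bars are group means and error bars the SD of 3 mice. Tgfb2 and Smad7 sat lower in every T + E2 mouse and Tgfbr1 and Tgfbr2 higher, with CON mouse 3 far below the other CON mice for Tgfbr2 and T + E2 mouse 2 above all others for Smad2.

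The ligands did not move together. Tgfb2 fell, and the estimates for Tgfb3 and Tgfb1 lay on opposite sides of 0 without passing the test. Tgfb2 (ENSMUSG00000039239, chromosome 1, 186622792 to 186705989), the isoform that depends most on betaglycan for receptor binding, was measured at 53.0, 44.7 and 52.9 CPM in the 3 CON mice and at 28.4, 29.1 and 28.0 CPM in the T + E2 mice. The lowest CON mouse was thus well above the highest T + E2 mouse, and the T + E2 mice were nearly level. The means were 50.2 ± 4.80 and 28.5 ± 0.551 CPM (SD, n = 3), a 0.568-fold level. The log2 fold change was -0.82 (SE 0.098, 95% interval -1.04 to -0.59, edgeR adjusted p = 0.00117). The adjusted p was under 0.05 in 14 of 14 alternative settings, all without the fold requirement, which Tgfb2 did not meet. An antisense gene, Gm29491, shares 124 exon bases with Tgfb2, but its mean count was 0.303% of that of Tgfb2.

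Tgfb3 (ENSMUSG00000021253, chromosome 12, 86056744 to 86079041), a ligand known for its role in palate fusion and scar-poor healing, showed 36.6, 30.7 and 32.9 CPM in the CON group and 28.8, 27.3 and 26.6 CPM in the T + E2 group. The groups did not overlap, but the gap between them was small beside the spread of the CON mice. In log2 units, the estimate of -0.28 (SE 0.099, 95% interval -0.50 to -0.05) did not pass the test (edgeR adjusted p = 0.0889). The gene lies inside Ttll5 on the opposite strand, with no shared exon bases, and the library kit does not mark strand. The mean count of Ttll5 was 305 against 468 for Tgfb3, and reads of its introns that fall on Tgfb3 could not be separated.

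Tgfb1 (ENSMUSG00000002603, chromosome 7, 25687002 to 25705077), the isoform most studied in fibrosis and immune regulation, was measured at 19.5, 15.05 and 13.4 CPM in the CON mice and 19.7, 21.01 and 24.6 CPM in the T + E2 mice. The highest CON mouse and the lowest T + E2 mouse almost met. Its log2 fold change was 0.44 (SE 0.16, 95% interval 0.07 to 0.82, edgeR adjusted p = 0.0928). Leaving out CON mouse 1, the mouse with the highest CON value, gave 0.61 with an adjusted p of 0.0338, so whether Tgfb1 was called depended on 1 control library.

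Levels of different genes were compared per length, in FPKM, the count divided by gene length and library total. Summed over the 3 ligands, expression was 18.4 ± 1.80 FPKM in the CON group, against 14.9 ± 0.495 in the T + E2 group, and the groups did not overlap (exact two-sided permutation p = 0.1, the smallest that 3 against 3 mice allow). The make-up of this sum differed as well. Tgfb1 contributed 17.1%, 15.9% and 13.1% of ligand FPKM in the CON mice, against 22.9%, 24.6% and 28.2% in the T + E2 mice. Its mean share was 15.3% ± 2.02 against 25.2% ± 2.74, a difference of 9.89 percentage points (exact p = 0.1, 0.15 adjusted over the 3 shares). Tgfb2 held the mirror image, with a mean share of 30.4% ± 1.88 against 20.8% ± 0.588 (exact p = 0.1), so that it passed from second to last of the ligands. The shares of a mouse add up to the whole, so the differences in the Tgfb1 and Tgfb2 shares are not separate results. Tgfb3 made up 54.2% ± 0.363 and 54.0% ± 2.47, and these groups overlapped (exact p = 0.8). The lengths behind the FPKM values differ from the exon lengths of GENCODE M21. With the latter, an alternative chosen after the data were seen, the mean shares were 14.6% and 24.8% for Tgfb1, 40.0% and 28.3% for Tgfb2, and 45.5% and 46.9% for Tgfb3. Tgfb2 then remained above Tgfb1 in the T + E2 group, so the order of these ligands depends on the gene model while the direction of both shares does not.

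**Figure D2:**
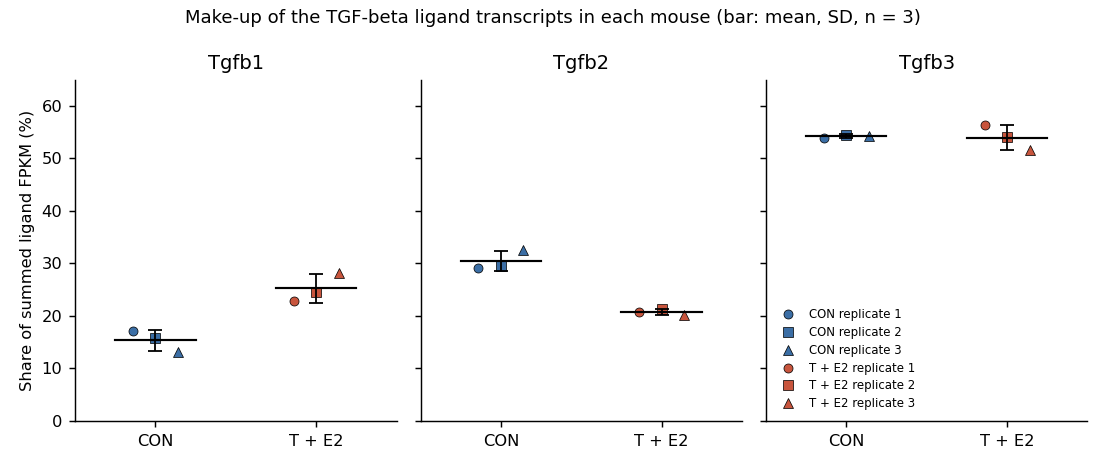
Each panel gives the share (%) of 1 ligand in the summed FPKM of Tgfb1, Tgfb2 and Tgfb3, with 1 symbol per mouse, the mean as a bar and the SD of 3 mice as an error bar. The Tgfb1 share was 13.1% to 17.1% in CON mice and 22.9% to 28.2% in T + E2 mice, the Tgfb2 share was lower in all T + E2 mice, and the Tgfb3 shares overlapped.

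For each ligand, the genes with the most similar pattern over the 6 mice were taken as those with the smallest root mean square (RMS) difference in centred log2 CPM among genes of like level. Tgfb2 was followed most closely by Sh3bgrl2, at an RMS difference of 0.017, then by Oasl2 at 0.058 and Fam171a1 at 0.059, against a median of 0.44 over 9112 genes. The nearest genes to Tgfb1 were Armt1, Gm14305 and Plce1, at 0.044 to 0.060 against a median of 0.35 over 9192 genes. Those nearest to Tgfb3 were Mblac2, Smim19 and Sccpdh, at 0.023 to 0.046 against a median of 0.23 over 9297 genes. No ligand appeared among the nearest genes of another, and no other gene of the pathway did. Only 3 genes were taken per ligand, so this says little about the rest of the pathway. The smallest of so many differences also lies below their median by construction.

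Among the genes that hold TGF-β latent and release it, Ltbp1 had a negative estimate that did not pass the test, while 4 integrin β chains rose. Ltbp1 (ENSMUSG00000001870, chromosome 17, 75005568 to 75392512), which anchors the latent complex in the matrix, had 29.2, 28.1 and 27.2 CPM in the CON mice and 21.4, 21.01 and 25.9 CPM in the T + E2 mice. T + E2 mouse 3 lay close to the CON group. With a log2 fold change of -0.31 (SE 0.11, 95% interval -0.56 to -0.05), it missed the threshold (edgeR adjusted p = 0.0906), and without T + E2 mouse 3 it was -0.41 with an adjusted p of 0.0341. The other genes of latency and activation were counted from a list of 15, of which 14 were tested: 6 were higher and none lower. The called genes were 42.9% of the list, against 19.6% of all genes tested, of which 10.4% were called higher. This list, like the others here, was chosen with earlier results of these data known, so its share is descriptive only. The median log2 fold change of the 14 was 0.31, against -0.0021 over all genes tested. Itgb6, the epithelial β6 integrin chain that pulls TGF-β1 and TGF-β3 from latency, rose from 1.66, 1.97 and 2.14 CPM to 5.67, 4.44 and 3.74 CPM (log2 fold change 1.26, SE 0.24, edgeR adjusted p = 0.00969). Itgb8, the chain of the other main activating integrin, rose from 15.3 ± 2.30 to 25.0 ± 1.42 CPM (log2 fold change 0.71, edgeR adjusted p = 0.00819). Furin, the protease that cleaves the TGF-β precursor, rose by 0.57 (edgeR adjusted p = 0.00615), and Ltbp3, another latency protein, by 0.49 (edgeR adjusted p = 0.0135). The αv chain Itgav, partner of both integrin chains, was at 0.15 (SE 0.31) with an adjusted p of 0.772. It had 62.6, 50.1 and 47.0 CPM in the CON mice and 78.6, 30.1 and 68.4 CPM in the T + E2 mice. T + E2 mouse 2 was thus the lowest of all, while the other T + E2 mice were above every control. Itgb3 was at -0.25 with an adjusted p of 0.37. Itgb1 and Itgb5 were the remaining 2 that rose. Markers of the basal epithelium summed to 155 to 257 CPM in the CON mice and 245 to 313 CPM in the T + E2 mice, with 1 of 4 higher (Trp63). Of 6 luminal epithelial markers, Epcam and Cdh1 were higher (log2 fold changes 1.18 and 0.34) and Cd24a and Krt18 lower (-1.30 and -0.54). Their part in the integrin result was not tested.

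All 3 receptor genes had higher means in the T + E2 group, and 2 of the 3 passed the test. Tgfbr2 (ENSMUSG00000032440, chromosome 9, 116087698 to 116175363), the type II receptor that binds the ligand first, was measured at 104, 92.9 and 38.1 CPM in the CON mice and 188, 196 and 216 CPM in the T + E2 mice. Every T + E2 mouse was well above every CON mouse, while CON mouse 3 stood far below the other controls. The means were 78.2 ± 35.1 and 199.9 ± 14.5 CPM (SD, n = 3). The log2 fold change was 1.36 (SE 0.32, 95% interval 0.62 to 2.09, edgeR adjusted p = 0.0215), a 2.56-fold difference. In CON mouse 3 the level was 1.36 lower on the log2 scale than the mean of the other controls (difference -1.36), and 9 of 5849 genes of like level, or 0.154%, were lower still in that comparison. Without CON mouse 3 the log2 fold change was 1.03 with an adjusted p of 0.00277. Without T + E2 mouse 2 or T + E2 mouse 3 the estimate stayed at 1.37 and 1.30, but the adjusted p was 0.0615 and 0.0594.

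Tgfbr1 (ENSMUSG00000007613, chromosome 4, 47353222 to 47414931), the type I receptor kinase that phosphorylates Smad2 and Smad3, had 48.7, 42.7 and 39.9 CPM in the CON mice and 69.6, 77.0 and 60.1 CPM in the T + E2 mice. The groups were clearly apart and similar in spread. The groups differed by a log2 fold change of 0.66 (SE 0.12, 95% interval 0.37 to 0.94, edgeR adjusted p = 0.00846), a 1.57-fold difference. Leaving out any 1 mouse kept it between 0.57 and 0.74 and past the threshold. When both libraries with seminal vesicle transcripts were left out, a setting added after the data were seen that leaves 2 mice a group, Tgfbr1 was at 0.55 (adjusted p = 0.0824) and Tgfbr2 at 1.51 (adjusted p = 0.091).

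Tgfbr3 (ENSMUSG00000029287, chromosome 5, 107106570 to 107289629), betaglycan, a co-receptor without a kinase that presents the ligand to TGFBR2, was at 159, 133 and 136 CPM in the CON mice and 168, 179.9 and 188 CPM in the T + E2 mice. CON mouse 1 nearly reached the T + E2 values. As a log2 fold change, this was 0.32 (SE 0.10, 95% interval 0.09 to 0.56, edgeR adjusted p = 0.0587). It passed with DESeq2 (adjusted p = 0.0347) and without CON mouse 1 (edgeR adjusted p = 0.0379).

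**Figure D3:**
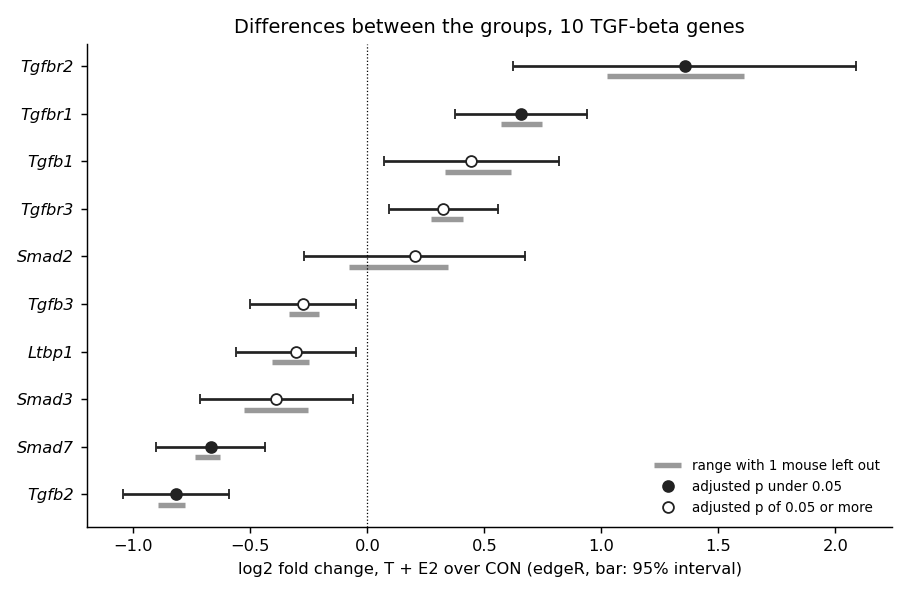
Points give the edgeR log2 fold change of each gene, T + E2 over CON, with black bars for the 95% interval, and grey bars show the range of the estimate when each of the 6 mice was left out in turn. Filled points (Tgfbr2, Tgfbr1, Smad7 and Tgfb2) had an adjusted p under 0.05, and the grey bar crosses 0 for Smad2.

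Within each mouse, the balance between the receptors was described by the log2 ratio of their FPKM. The ratio of Tgfbr3 to Tgfbr2 was -0.08, -0.19 and 1.13 in the CON mice, against -0.87, -0.83 and -0.91 in the T + E2 mice. The ratio was thus lower in all T + E2 mice, which were close together. Which transcript was the more abundant depends on the gene model, since with GENCODE M21 exon lengths the ratio was 0.94, 0.84 and 2.16 in the CON mice, against 0.16, 0.20 and 0.12 in the T + E2 mice, and betaglycan was above Tgfbr2 in all 6. The difference between the groups does not depend on length. The groups did not overlap and differed by -1.15 (exact two-sided permutation p = 0.1, 0.125 adjusted over the 5 ratios computed), or by -0.73 without CON mouse 3. The ratio of Tgfbr1 to Tgfbr2 differed by -0.83 (exact p = 0.1), from -1.65 ± 0.68 to -2.47 ± 0.27, and by -0.44 without CON mouse 3. Summed receptor FPKM was 40.0 ± 9.57 in the CON group, against 71.3 ± 5.69 in the T + E2 group (exact p = 0.1), whereas summed ligand FPKM, above, was lower.

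**Figure D4:**
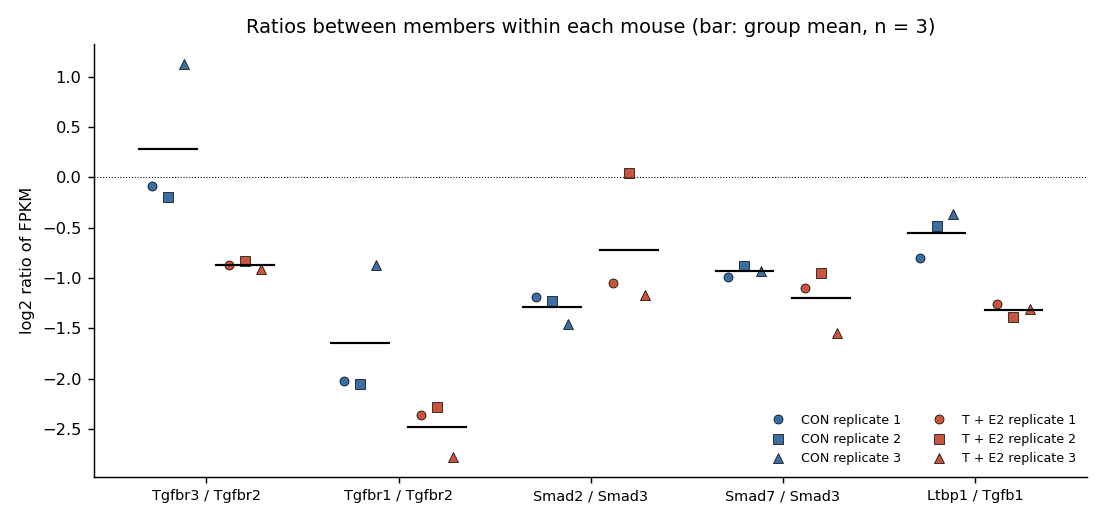
The 5 log2 ratios of FPKM between pairs of genes are plotted on a linear axis of log2 units, with 1 symbol per mouse and a bar at each group mean (n = 3). The T + E2 mice clustered tightly for Tgfbr3 / Tgfbr2 and Ltbp1 / Tgfb1, CON mouse 3 stood above both groups for the ratios to Tgfbr2, and T + E2 mouse 2 stood above the rest for Smad2 / Smad3.

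A list of 10 other genes held receptors, co-receptors and genes that are neither, such as Hspa5, Fkbp1a, Tgfbrap1 and Trap1. Of these 10, 2 were higher and none lower, 20% called against 19.6% of all genes tested. Their median log2 fold change was 0.01. Hspa5, the chaperone BiP, which can hold a TGF-β receptor partner at the cell surface but is chiefly a stress gene of the endoplasmic reticulum, rose by 0.96 (SE 0.21, edgeR adjusted p = 0.0165). Nrp1, neuropilin 1, which binds latent and active TGF-β as well as vascular growth factors, rose from 27.1 ± 1.80 to 40.0 ± 6.65 CPM (log2 fold change 0.56, edgeR adjusted p = 0.0212). Neither of these is specific to TGF-β.

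Among the Smads, the inhibitor Smad7 fell, while the receptor-activated pair Smad2 and Smad3 did not pass the test. The estimate for Smad3 was also negative, and the ratio of Smad7 to Smad3, given below, overlapped between the groups. Smad7 (ENSMUSG00000025880, chromosome 18, 75367529 to 75395935) was at 30.3, 29.7 and 32.7 CPM in the CON mice and at 21.2, 18.8 and 18.3 CPM in the T + E2 mice. Both groups were narrow and widely separated. The means were 30.9 ± 1.58 and 19.4 ± 1.53 CPM (SD, n = 3), a 0.628-fold level. Its log2 fold change was -0.67 (SE 0.10, 95% interval -0.90 to -0.44, edgeR adjusted p = 0.0032). Like Tgfb2, it had an adjusted p under 0.05 in 14 of 14 alternative settings, all without the fold requirement, which it did not meet.

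Smad3 (ENSMUSG00000032402, chromosome 9, 63646767 to 63757994), which binds DNA directly, had 44.6, 40.5 and 46.3 CPM in the CON group and 33.7, 27.0 and 39.6 CPM in the T + E2 group. The T + E2 mice were spread widely and the highest came within reach of the lowest control. On the log2 scale, the difference of -0.39 (SE 0.14, 95% interval -0.72 to -0.06) did not pass (edgeR adjusted p = 0.0919), and without T + E2 mouse 3 it was -0.53 with an adjusted p of 0.0366. Smad2 (ENSMUSG00000024563, chromosome 18, 76241580 to 76305731), whose main form does not bind DNA, had 17.9, 15.8 and 15.5 CPM in the CON group and 14.9, 25.5 and 16.1 CPM in the T + E2 group. Only T + E2 mouse 2 left the range of the other 5 mice by more than 1 CPM. edgeR estimated the log2 fold change at 0.20 (SE 0.21, 95% interval -0.27 to 0.67, edgeR adjusted p = 0.525), and it was -0.08 without that mouse.

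The difference in the ratio of Smad2 to Smad3, 0.56 on the log2 scale (exact two-sided permutation p = 0.1), also leaned on T + E2 mouse 2, at 0.04 against -1.05 and -1.17 in the other T + E2 mice and -1.19 to -1.45 in the CON mice. The ratio of Smad7 to Smad3 overlapped between the groups and differed by -0.27 (exact p = 0.2). The ratio of Ltbp1 to Tgfb1 was lower in every T + E2 mouse, at -1.32 ± 0.061 against -0.55 ± 0.23, and differed by -0.77 (exact p = 0.1, 0.125 adjusted over the 5 ratios).

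Tgfbr2 and Smad2, the genes in which 1 library stood apart, are also those whose deposited coordinates stop short of the 3′ end in GENCODE M21. Tgfbr2 lies on the minus strand and starts at 116087698 in the deposited table against 116084293 in that annotation, and Smad2, on the plus strand, ends at 76305731 against 76310963. The gene lengths behind their FPKM values were 4.785 and 5.249 kb, against exon lengths of 8187 and 8781 bases. Coordinates of 7 of the other 8 genes were the same in both sources, and those of Tgfb3 differed by 1 base at 1 end. Whether the gene model had a part in the libraries that stood apart was not tested.

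By FPKM, the most abundant transcripts in the CON group were Tgfbr3 (18.5 ± 2.00), Tgfbr2 (16.6 ± 7.62) and Tgfb3 (9.98 ± 0.905), and neighbours among these overlapped in range. Smad3 (7.73), Tgfb2 (5.59), Tgfbr1 (4.85), Smad7 (4.05), Smad2 (3.17), Tgfb1 (2.84) and Ltbp1 (1.91) followed, of which Tgfb2 with Tgfbr1 and Smad2 with Tgfb1 overlapped. In the T + E2 group Tgfbr2 stood alone at the top with 41.3 ± 4.12 FPKM, apart from Tgfbr3 at 22.6 ± 1.90. Tgfb3 (8.03), Tgfbr1 (7.44) and Smad3 (5.76) came next and overlapped as neighbours. Tgfb1 (3.77), Smad2 (3.55) and Tgfb2 (3.09) overlapped in turn, and Smad7 (2.48) and Ltbp1 (1.51) closed the order, each apart from its neighbours. Tgfb2 thus fell from rank 5 to rank 8 and Tgfbr1 rose from rank 6 to rank 4, ranks that rest on the deposited gene lengths. With GENCODE M21 exon lengths, Tgfb2 went from rank 4 to rank 6 and Tgfbr1 from rank 7 to rank 3. Tgfbr3 was then the most abundant in both groups, at 22.1 ± 2.38 and 26.9 ± 2.27, and Tgfbr2 was at 9.71 ± 4.46 and 24.1 ± 2.41, so that its place at the top of the T + E2 group was lost.

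Of the Smad partners and cofactors, 2 of 11 tested genes rose and 2 fell, 36.4% in all against 19.6% of all genes tested. Smad9, a Smad of the bone morphogenetic protein (BMP) branch, fell from 35.2, 22.9 and 33.1 CPM to 15.3, 9.92 and 12.0 CPM (log2 fold change -1.29, SE 0.21, edgeR adjusted p = 0.00427), whereas Smad1 of the same branch rose by 0.39 (edgeR adjusted p = 0.0392). Tgfb1i1 (Hic-5), a focal adhesion protein abundant in smooth muscle, fell by 0.55 on the log2 scale (edgeR adjusted p = 0.0431), and Zfyve9 (SARA), which brings Smad2 and Smad3 to the receptor, rose by 0.33 (edgeR adjusted p = 0.0455). Smad4, the common partner, was at -0.18 with an adjusted p of 0.235.

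A further list of 14 tested genes, most but not all of them inhibitors of the signal, was read beside Smad7. In it 3 genes were called lower and 1 higher, 28.6% in all against 19.6% of all genes tested. Fmod, fibromodulin, a matrix proteoglycan that binds TGF-β, fell from 60.8, 74.4 and 74.8 CPM to 29.4, 22.7 and 27.8 CPM (log2 fold change -1.40, SE 0.13, edgeR adjusted p = 0.000371). Smad6, the inhibitory Smad aimed mainly at BMP receptors, fell from 17.3 ± 1.91 to 9.08 ± 2.21 CPM (log2 fold change -0.93, edgeR adjusted p = 0.0111), so that both inhibitory Smads were lower in the T + E2 group. Tgif1, a nuclear co-repressor of Smad2, fell by 0.39 on the log2 scale (edgeR adjusted p = 0.0251). The exception was Nedd4l, a ubiquitin ligase that removes activated Smad2 and Smad3, which rose from 47.3 ± 7.63 to 88.6 ± 7.23 CPM (log2 fold change 0.90, edgeR adjusted p = 0.00292).

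In the activin and GDF branch, which also uses Smad2 and Smad3, 1 of 11 tested genes was called, 9.09% against 19.6% of all genes tested. Gdf15, a divergent family member known as a stress-induced circulating factor, fell from 10.5, 10.7 and 16.3 CPM to 0.623, 0.365 and 0.601 CPM (log2 fold change -4.56, SE 0.30, edgeR adjusted p = 6.58e-05). This was the largest difference among the 69 other pathway genes tested. GDF15 signals through a receptor other than those for TGF-β. Of 9 genes of the Smad-independent branch, 1 was called, or 11.1%. It was Tab1, a partner of the kinase TAK1, with a log2 fold change of -0.42 (edgeR adjusted p = 0.0347). Over all 6 lists, 11 of 69 tested genes were higher and 7 lower, with a median log2 fold change of -0.05. The 18 called were 26.1% of those tested, against 19.6% of all genes. Their number became 11 without CON mouse 2, CON mouse 3 or T + E2 mouse 2, and 10 without T + E2 mouse 1. Of all genes, 12.2% to 13.4% were called in these settings.

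**Figure D5:**
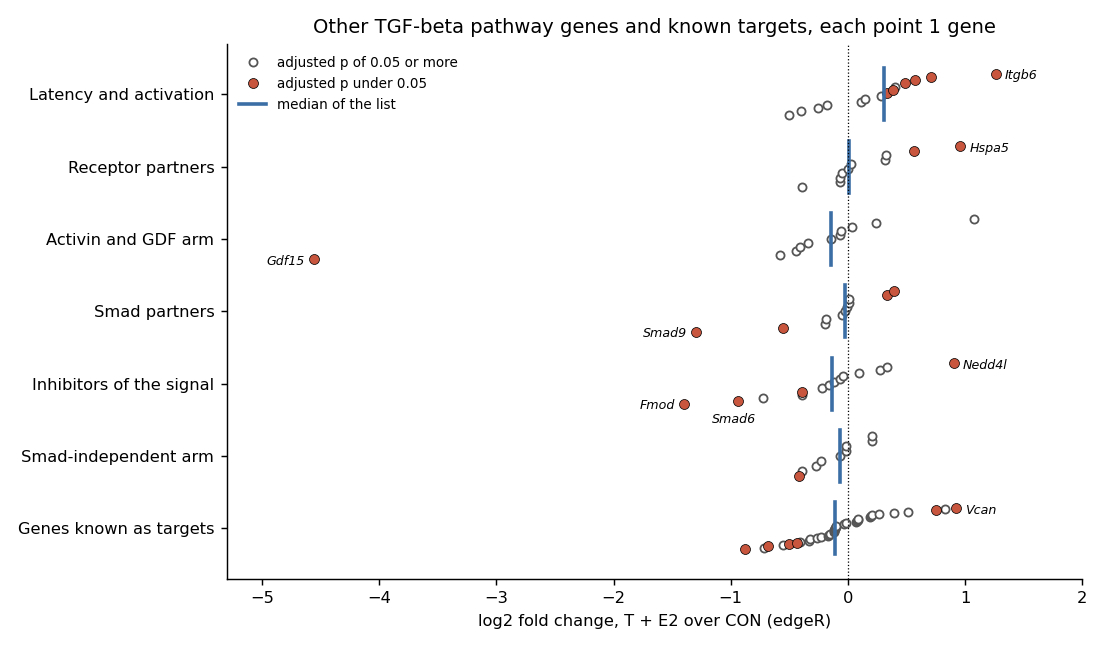
Each point is 1 gene, placed by its edgeR log2 fold change (T + E2 over CON) in rows for 6 lists of other pathway genes and 1 list of known TGF-β targets; filled points had an adjusted p under 0.05 and vertical bars mark list medians. Called genes of latency and activation all lay above 0, Gdf15 lay far to the left at -4.56, and the targets were spread around a median of -0.11.

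Genes widely known to be induced by TGF-β did not move as a group. Of 36 tested, 2 were higher and 4 lower, 16.7% in all against 19.6% of all genes, and the median log2 fold change was -0.11. Vcan, the matrix proteoglycan versican, rose from 28.4, 27.7 and 22.8 CPM to 47.5, 57.9 and 43.8 CPM (log2 fold change 0.92, SE 0.14, edgeR adjusted p = 0.003). Lox, the enzyme that crosslinks collagen, rose by 0.75 (edgeR adjusted p = 0.0326). Tnc, tenascin C, fell from 14.8 ± 1.83 to 8.10 ± 2.12 CPM (log2 fold change -0.88, edgeR adjusted p = 0.0201), and Mmp2, a gelatinase, fell by 0.68 on the log2 scale (edgeR adjusted p = 0.00264). Acta2 and Junb were the other 2 that fell, and Acta2 is also a smooth muscle gene. The commonly used readouts Ctgf (log2 fold change 0.83, edgeR adjusted p = 0.24) and Col1a1 (-0.41, adjusted p = 0.2) did not pass. Both were picked as familiar examples with their values known. Without T + E2 mouse 2, which also leaves fewer mice, 3 of the targets were called in place of 6, and 12.5% of all genes.

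Markers of the cells that make or receive TGF-β were read in the same libraries. Over all marker lists, 28.3% of 60 tested genes were called, against 19.6% of all genes tested. Smooth muscle markers were lower for 2 of 8 genes and none was higher, with summed levels of 2511 to 3074 CPM in the CON mice and 2305 to 2563 CPM in the T + E2 mice, which overlapped. Fibroblast markers summed to 570 to 606 CPM and 612 to 739 CPM, without overlap, and 1 of 8, C7, was higher. Without C7, a setting added after the data were seen, the other 7 summed to 490.5 to 543 CPM and 446 to 509 CPM, which overlapped, and 6 of the 8 had negative estimates. Markers of nerve and glia were lower for 3 of 4 genes, and summed to 123 to 160 CPM in the CON mice but 49.5 to 89.1 CPM in the T + E2 mice. No endothelial marker of 6 was called (94.1 to 128 CPM and 117 to 146 CPM), and 1 of 7 leukocyte markers, Itgam, was higher (81.4 to 123 CPM and 119 to 158 CPM). Luminal epithelial markers rose in 2 and fell in 2 of 6 cases, at 3108 to 3698 CPM and 3304 to 3355 CPM. Skeletal muscle (68.6 to 237 CPM and 84.5 to 183 CPM) and fat (26.2 to 143 CPM, highest in CON mouse 2, and 11.8 to 36.7 CPM) overlapped between the groups. Of 4 epididymal markers, Adam7 was at 0 in the CON mice and at 10.9, 4.93 and 9.28 CPM in the T + E2 mice, Rnase10 did not exceed 0.197 CPM in any mouse, and Lcn5 and Defb20 were at 0 in all 6. The part of these markers in the differences of Tgfb2, Smad7 and the receptors was not tested.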

How the data were processed

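RNA from the prostates of 6 mice (3 CON, 3 T + E2) was converted to paired-end libraries with a kit that does not mark strand. The submitters' processing notes name TopHat, Bowtie2 and HTSeq, while versions, the strand setting and the annotation are not given in the sources used here. The authors deposited whole-number read counts for 34745 genes, without normalization. The authors also deposited FPKM values for the same genes, which are the counts divided by gene length and library total. The coordinates use build GRCm38, and loci were compared with GENCODE M21.

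Counts were tested with edgeR 4.0.16 (R 4.3.3) by the quasi-likelihood test with TMM normalization and filterByExpr (minimum count 10, total 15), fitted on all genes with no covariate and with Benjamini-Hochberg adjustment over 15580 genes. The script was tested on simulated data. Shares and ratios were computed from FPKM per mouse and compared by exact two-sided permutation tests, for which 0.1 is the smallest p. Alternatives were median-of-ratios and total-count scaling, no filter, DESeq2 1.42.0, limma 3.58.1 on log2(FPKM + 1) and log2(FPKM + 0.1), a replicate block, a fold threshold, and leaving out each mouse. The deposited table held no other columns of per-sample values. Libraries of 14816146 to 16555549 counts put 213 or more reads on every one of the 10 genes in every mouse, and replicates differed by more than counting noise.

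Groups and replicate numbers came from the sample titles. Per the study's methods, 3 mice of each group were set aside for sequencing, so each library stands for 1 mouse. The 10 genes and all lists were chosen with earlier results of these data known. Named from each list were up to 4 called genes with the largest absolute log2 fold change, and further names were added after their values were seen. Of list symbols, 3 occurred in more than 1 row, and the row with the higher summed count was used.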

Additional observations from a re-analysis of the deposited data

How the results depend on the processing

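Tgfb2 and Smad7 kept their direction and an adjusted p under 0.05 in all 14 alternative settings, and Tgfbr1 in 13 and Tgfbr2 in 11 of 14. These 14 do not include the fold threshold, which Tgfb2, Smad7 and Tgfbr1 did not meet. They do include the setting without both libraries that held seminal vesicle transcripts. Of the 10 genes, 4 were called (2 higher, 2 lower). With the fold threshold added this was 1 (1 higher, 0 lower). Leaving out 1 mouse gave 3 to 6 called, 1 to 4 higher and 2 to 4 lower. With both libraries that held seminal vesicle transcripts left out, chosen after the data were seen, 2 were called and 0 were higher by edgeR, against 2 higher at an unadjusted p under 0.05 and 1 higher by DESeq2 in the same 4 mice. The 18 other pathway genes called became 11 with the replicate block, 4 with the fold threshold, 6 without both libraries, and 10 to 18 with 1 mouse left out. The 6 called targets became 0, 2 and 3 to 5 under the last 3 of these settings, and the 17 called markers became 11, 10 and 12 to 17. Fewer mice were tested in the settings that leave libraries out. Of all genes, 19.6% were called in the main test, 14% with the replicate block and 7.64% with the fold threshold. The share was 8.65% without both libraries and 12.2% to 17.2% with 1 mouse left out. The log2 fold change of Smad2 ran from -0.0799 (without T + E2 mouse 2) to 0.34 with 1 mouse left out, and was -0.11 without both libraries. The difference in the share of Tgfb3, which was not distinguishable from 0, turned to 1.93 percentage points with CPM in place of FPKM and 1.43 with GENCODE exon lengths, ran from -1.48 to 0.987 (without T + E2 mouse 3) with 1 mouse left out, and the cause was not tested. Same-numbered mice did not deviate together (correlations of -0.05, 0.03 and 0.05). With 3 mice a group this cannot exclude that the numbers pair the samples, and both libraries with seminal vesicle transcripts bear the number 2. The replicate block gave Tgfbr2 a log2 fold change of 1.46 and changed no call among the 10 genes. Total-count scaling moved the median of all genes to -0.04. With 3 mice a group and a coefficient of biological variation of 18.0%, the intervals given limit which differences could be resolved.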
